A study of Mus musculus with 3 samples.

Results

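The transcripts described here encode the AP-1 family of transcription factors in 3T3-L1 adipocytes after 2 h of glucose oxidase. The family was taken as 10 genes, namely Fos, Fosb, Fosl1, Fosl2, Jun, Junb, Jund, Atf3, Batf and Batf3, out of 18194 genes that had a probe set of their own in the platform annotation. All probe sets annotated to a single member were used, which gave 14 of 34958 such probe sets. 3T3-L1 cells are a mouse fibroblast line that can be differentiated into fat cells in culture, and glucose oxidase makes hydrogen peroxide as it oxidises glucose in the medium. RNA of 3 samples, all given the enzyme, was hybridised to mouse4302 Affymetrix arrays, 1 sample per array. The source label calls the cells insulin resistant and the tissue label calls them preadipocytes, whereas the growth protocol describes differentiated adipocytes. The labels give no dose and no genotype, and nothing in the sources used here tells whether the samples were separate cultures, so their spread may be only technical. With control arrays not analysed here, every value is a level after treatment, and neither a fold change nor a test of the treatment could be derived from it.

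AP-1 factors carry a basic region that contacts DNA and a leucine zipper through which they pair. JUN proteins pair with themselves, with FOS proteins and with several ATF and BATF proteins, whereas FOS proteins need a JUN partner to bind DNA. Several of the genes are switched on within minutes by growth factors and stress, and binding of the FOS-JUN pair to DNA is sensitive to oxidation of a cysteine in the basic region. In preadipocytes, members of the family respond early to the hormones that start fat cell differentiation.

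To show where the sequences discussed here lie, the 250 bases before the annotated start are printed for Jun, Fos and Atf3, the members best known as early stress genes, and for Batf, which was not detected above background but shares a motif with Fos and Atf3. They come from RefSeq (GRCm38.p6) and are written 5′ to 3′ on the strand of the gene. Capitals mark TGACATCA, a variant of the AP-1 site, in Jun. In Fos, Atf3 and Batf they mark TGACGT, the first letters of the cyclic AMP response element, which reads ACGTCA where it lies on the other strand, and in Fos also the TATA box TATAAA.
Jun, minus strand, chr4:95052223-95052472: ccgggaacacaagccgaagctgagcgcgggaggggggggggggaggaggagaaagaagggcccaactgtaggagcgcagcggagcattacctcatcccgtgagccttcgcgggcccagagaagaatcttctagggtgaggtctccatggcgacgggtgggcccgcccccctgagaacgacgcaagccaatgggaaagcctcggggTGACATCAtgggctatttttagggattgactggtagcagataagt
Fos, plus strand, chr12:85473640-85473889: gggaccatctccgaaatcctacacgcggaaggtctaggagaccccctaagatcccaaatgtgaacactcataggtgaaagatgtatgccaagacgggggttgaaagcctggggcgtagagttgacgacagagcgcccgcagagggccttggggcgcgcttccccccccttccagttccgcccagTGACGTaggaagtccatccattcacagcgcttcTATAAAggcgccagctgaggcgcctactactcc
Atf3, minus strand, chr1:191183334-191183583: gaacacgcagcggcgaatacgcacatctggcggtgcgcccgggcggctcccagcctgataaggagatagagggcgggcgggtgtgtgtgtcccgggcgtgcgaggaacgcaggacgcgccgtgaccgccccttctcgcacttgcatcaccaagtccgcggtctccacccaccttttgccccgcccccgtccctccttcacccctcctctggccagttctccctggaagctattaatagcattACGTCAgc
Batf, plus strand, chr12:85686470-85686719: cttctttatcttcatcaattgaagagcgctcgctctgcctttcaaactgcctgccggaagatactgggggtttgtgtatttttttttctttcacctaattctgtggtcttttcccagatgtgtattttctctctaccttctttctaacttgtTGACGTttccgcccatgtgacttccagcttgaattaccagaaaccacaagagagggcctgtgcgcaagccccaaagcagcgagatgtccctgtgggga
The Jun motif lay 45 to 38 bases before the start, the Fos hexamer 66 to 61, the Atf3 hexamer 8 to 3 and the Batf hexamer 98 to 93.

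Of the 10 genes, 7 were above background. They were Jun, Junb, Jund, Fos, Fosl1, Fosl2 and Atf3, while Fosb, Batf and Batf3 were not. Levels are given as log2 of the deposited intensity. Background was set at 7.57 on this scale, the 95th percentile of the mean levels of 86 olfactory, vomeronasal and taste receptor probe sets. These receptors were assumed to be little used by fat cells, which was not tested. A probe set was above background when it exceeded the limit of 7.57 in all 3 arrays, and a gene when any of its probe sets did. By the same rule 54.5% of all genes were above background, against which 7 of 10 should be read. The samples are bulk RNA, in which fewer cells of a type and less RNA per cell cannot be told apart. Among probe sets, 9 of the 14 of the family were above background, against 45.3% of all. The same 7 genes were above background with the 90th or 99th percentile as the limit, with another set of background genes, with each gene read as its median probe set (by which 43.9% of all genes were above background), without probe sets that can cross-hybridise and without any 1 of the arrays. Of all genes, 57.5% were above background with the 90th percentile, 48.0% with the 99th and 49.7% with the other background genes. The share was 49.6% without cross-hybridising probe sets and 54.7% to 55.2% with an array left out.

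**Figure D1:**
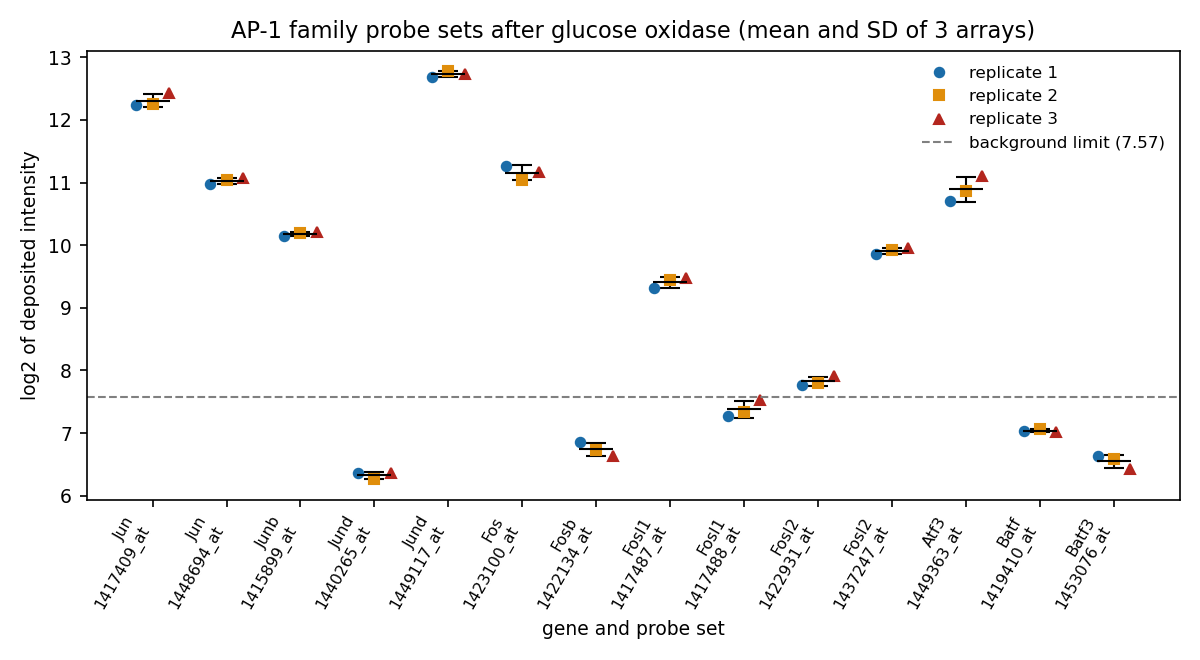
Log2 of the deposited intensity (y axis) for the 14 probe sets of the AP-1 family (x axis), with a symbol for each of the 3 arrays, the mean and SD as bars and the background limit of 7.57 as a dashed line. Heights of different probe sets are not comparable as amounts, and Fosb, Batf, Batf3, 1 of the Jund sets and 1 of the Fosl1 sets lie below the line in all 3 arrays.

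Among the JUN genes, Jun encodes the founding member that forms active dimers with most partners. Its probe set 1417409_at read 12.24, 12.26 and 12.43 in replicates 1, 2 and 3, with a mean of 12.31 ± 0.10 (SD, n = 3), and the array of replicate 3 stood above the other two. Its probe set 1448694_at read 10.98, 11.04 and 11.07, with a mean of 11.03 ± 0.05 (SD, n = 3). Both probe sets were thus lowest in replicate 1 and highest in replicate 3, by 0.19 and 0.10 on the log2 scale. Junb, whose product is often a weaker activator than that of Jun, has 1 probe set, which read 10.14, 10.19 and 10.20, with a mean of 10.18 ± 0.03 (SD, n = 3). The 3 arrays of Junb spanned 0.06, the narrowest range of the 9 probe sets above background. Jund, which is made in most cells without a stimulus, gave 12.69, 12.78 and 12.73 with probe set 1449117_at, with a mean of 12.73 ± 0.04 (SD, n = 3). Its other probe set, 1440265_at, read 6.36, 6.26 and 6.36 and was below the limit in all 3 arrays. The call for Jund therefore rests on a single probe set, and the median of the pair was 9.53.

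Among the FOS genes, Fos encodes a short-lived partner of JUN proteins and is a standard marker of recent stimulation. Its single probe set read 11.27, 11.04 and 11.17, with a mean of 11.16 ± 0.11 (SD, n = 3), so that it was highest in replicate 1 and lowest in replicate 2. The 5 preadipocyte and fibroblast markers measured as a check of the cells were also lowest in replicate 2, where 24.7% of all probe sets above background were lowest, and their summed intensity was 36277, 33589 and 35679.5 in replicates 1, 2 and 3. Among them were Dlk1, a preadipocyte gene that is switched off during differentiation, at 13.33, 13.13 and 13.26, and the growth factor receptor gene Pdgfra, at 10.91, 10.63 and 10.92. The array in which to set these markers beside Fos was chosen after the values were seen, and their part in its level was not tested. Fosb, a close relative that is also an immediate early gene, read 6.85, 6.73 and 6.64 and was below the limit in all 3 arrays. Fos and Fosb thus fell on different sides of the limit in the same samples, though they are measured by probe sets that need not respond alike.

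The FOS-related antigens Fosl1 and Fosl2 encode proteins that lack the strong activation domain of FOS and usually appear later. Fosl1 read 9.31, 9.44 and 9.47 with probe set 1417487_at, with a mean of 9.41 ± 0.08 (SD, n = 3). With probe set 1417488_at it read 7.27, 7.33 and 7.53, just under the limit in replicate 3. Fosl2 read 9.86, 9.92 and 9.95 with probe set 1437247_at, with a mean of 9.91 ± 0.05 (SD, n = 3). With probe set 1422931_at it read 7.77, 7.80 and 7.91, and this probe set was no longer above background with the 99th percentile as the limit (8.03) or with keratin-associated protein and defensin probe sets as background (7.91). All 4 probe sets of this pair of genes were lowest in replicate 1 and highest in replicate 3, by 0.09 to 0.26 on the log2 scale.

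Atf3 encodes a stress-induced factor that pairs with JUN proteins and, as a homodimer, represses transcription. Its probe set read 10.71, 10.87 and 11.10, with a mean of 10.89 ± 0.20 (SD, n = 3). The highest array exceeded the lowest by 1.31-fold, the widest range of the 9 probe sets above background. Batf and Batf3 encode small zipper proteins that pair with JUN proteins in lymphocytes and dendritic cells. Batf read 7.03, 7.06 and 7.02 and Batf3 6.63, 6.59 and 6.43, all below the limit. A level below the limit does not show that a transcript was absent.

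The arrays departed from each other in a shared direction for most of the family. Of the 9 probe sets above background, 7 were highest in replicate 3, where 43.2% of all probe sets above background were highest, and 8 were lowest in replicate 1, where 47.3% of all were lowest. The second count was chosen after the values were seen. Jund, highest in replicate 2, and Fos, highest in replicate 1, were the exceptions to the first, and Fos alone to the second. The median difference of replicate 3 from replicate 1 was 0.10 on the log2 scale for the 9 probe sets and 0.03 for all probe sets above background, which thus also leaned the same way. The 3 arrays have no replication of their own, so these differences could not be tested, and probe sets of 1 gene are not separate evidence.

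**Figure D2:**
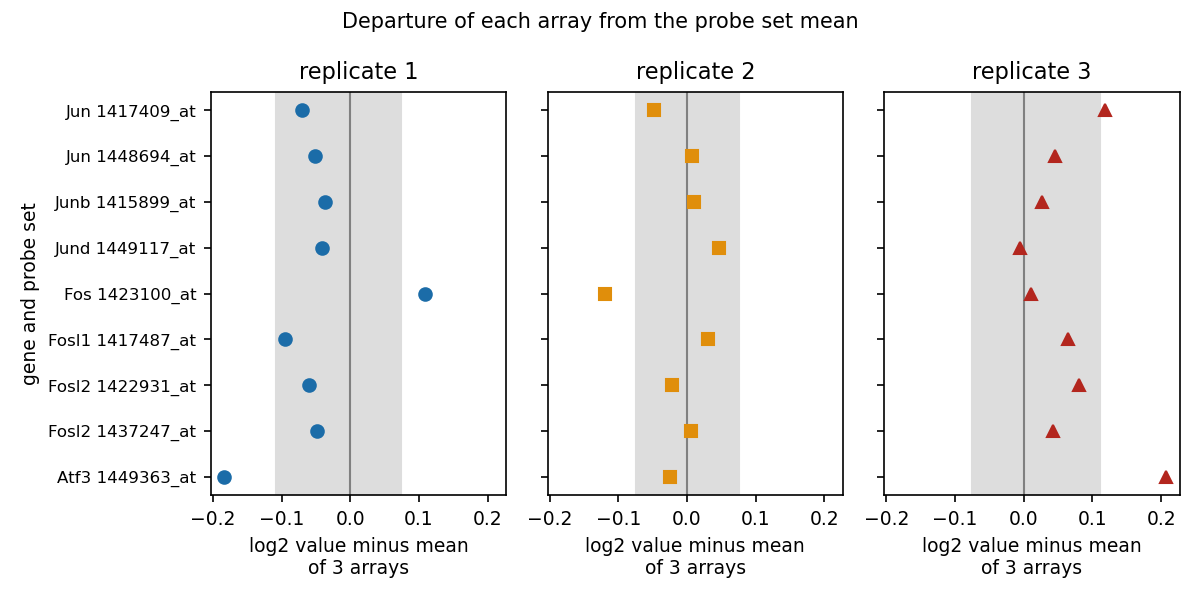
Departure of each array from the mean of the 3 arrays (x axis, log2 units) for the 9 probe sets of the AP-1 family above background (y axis), in a panel per replicate. The grey band spans the 5th to the 95th percentile of the departures of all probe sets above background in that array (-0.11 to 0.07, -0.07 to 0.08 and -0.08 to 0.11 in replicates 1, 2 and 3), and Atf3 lies outside it in replicates 1 and 3, Fos in replicates 1 and 2 and 1 probe set of Jun in replicate 3.

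The quality of the RNA, as the ratio of 3′ to 5′ signal on the control probe sets, moved between the arrays as well. For actin it was 1.70 in replicate 1, 1.58 in replicate 2 and 1.54 in replicate 3. The Gapdh ratio was 1.11, 1.14 and 1.10 in the same order of arrays, so of the pair the actin ratio alone was highest in replicate 1. The part of RNA quality in the differences between arrays was not tested.

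The spread between arrays differed among the members. The SD of Atf3, 0.20, was larger than that of 99.5% of all probe sets above background, that of Fos larger than 92.9% and that of Jun probe set 1417409_at larger than 89.8%. By contrast, the SD of Junb was larger than that of only 27.0%. Over the 9 probe sets the median SD was 0.073 on the log2 scale, against 0.051 for all probe sets above background, and 5 of the 9 exceeded the latter. Without replicate 1 the medians were 0.037 and 0.039, without replicate 3 they were 0.042 and 0.038, and without replicate 2 they were 0.069 and 0.047. The family's median was thus below that of all probe sets once replicate 1 was left out.

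**Figure D3:**
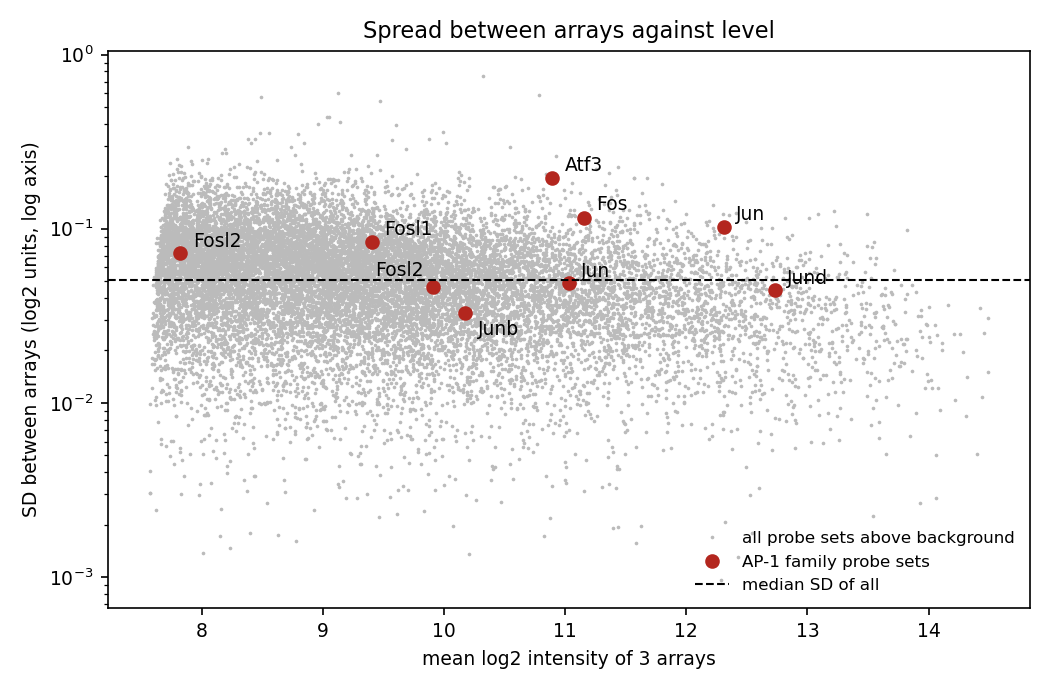
SD between the 3 arrays (y axis, log2 units on a log axis) against the mean log2 intensity (x axis) for all 15842 probe sets above background (grey) and the 9 of the AP-1 family (red, named). The dashed line is the median SD of all, 0.051; Atf3, Fos, Fosl1, 1 probe set of Jun and 1 of Fosl2 lie above it.

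Atf3 was the member with the largest SD, and the genes closest to its pattern were sought by the Euclidean distance between log2 values centred on their own mean over the 3 arrays. Of 9917 other genes above background, the closest were Snap29 at a distance of 0.0047, Lcor at 0.014, Gsk3b at 0.022, Dlc1 at 0.026 and Retreg3 at 0.026. Snap29, which encodes a membrane fusion protein, read 8.08, 8.25 and 8.48. Gsk3b, which encodes a protein kinase of insulin and WNT signalling, read 9.98, 10.15 and 10.35. Within the family Jun was closest, at 0.15, with 316 genes nearer, and Fos was farthest, at 0.37, with 9200 nearer. Lcor encodes a corepressor of nuclear receptors and read 8.96, 9.10 and 9.33. Dlc1 read 11.40, 11.52 and 11.78, and Retreg3, which encodes a protein of the endoplasmic reticulum, read 9.10, 9.23 and 9.46. All 5 genes, like Atf3, were lowest in replicate 1 and highest in replicate 3, which follows from how they were chosen. A likeness over 3 arrays is a description of these arrays, and 18 genes lay within 0.05.

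The genes that act on or with AP-1 were then counted in lists that group them by role. These lists are not independent of earlier work on these arrays. Of 15 measured kinases upstream of AP-1, 10 were above background (66.7%), beside 54.5% of all genes. Read as the median probe set of each gene, 7 of the 15 were above it, beside 43.9% of all genes. The JNK genes Mapk8 and Mapk9, whose products phosphorylate JUN, were both among the 10. Mapk9 read 9.87, 9.97 and 9.97. Mapk8, chosen for its role with its values known, read 9.02, 9.10 and 9.01, but its median probe set, at 7.06, was not above background. The third JNK gene, Mapk10, was not above background, at 5.27, 5.33 and 5.48. Map3k5, which encodes the peroxide-activated kinase ASK1, was near the limit, at 7.76, 7.72 and 7.88, and its median probe set was not above it. Map3k1 was nearer still, at 7.59, 7.59 and 7.64, and its median probe set, at 6.04, was not above the limit. Map2k2, a kinase of the ERK cascade, read 10.47, 10.59 and 10.67. The p38 genes Mapk11 and Mapk13, with means of 6.72 and 6.04, were not above background, nor were Mapk12 and the p38 activator Map2k6, which passed the limit in some arrays only, with means of 7.70 and 7.53. The fourth p38 gene, Mapk14, was above background at 11.51, 11.48 and 11.56, and so was the p38 activator Map2k3 at 10.84, 10.91 and 10.87. Both were also above it with their median probe set, at 8.70 and 10.26. The remaining 3 genes of this list were not analysed here.

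All 6 measured genes for SRF, its ternary complex factors and its MRTF coactivators, through which the Fos gene is switched on, were above background, beside 54.5% of all genes. The widest SD in this list was that of Mrtfa, at 8.84, 8.83 and 9.01, followed by Elk3 with a mean of 8.87 ± 0.04 (SD, n = 3) and Elk4 with a mean of 9.79 ± 0.04 (SD, n = 3). Read as the median probe set of each gene, 4 of the 6 were above background, beside 43.9% of all genes by that reading, and Elk3 was not, at 6.70.

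Of 21 measured genes for other zipper proteins that pair with or resemble AP-1 factors, 20 were above background (95.2%), beside 54.5% of all genes. The exception was Creb5, at 5.59, 5.61 and 5.59. The widest SDs were those of Maf, at 10.27, 9.97 and 10.15, Atf6, a sensor of endoplasmic reticulum stress, at 8.38, 8.52 and 8.61, and Batf2, at 8.18, 8.13 and 7.98. Maf was thus lowest in replicate 2, as Fos was, and Atf6 was highest in replicate 3, as Atf3 was. In this list 13 of the 20 genes above background were highest in replicate 3, beside 43.2% of all probe sets above background. Lowest in replicate 2 were 5 of the 20, beside 24.7% of all. Each gene was read here as its highest probe set, whereas the shares count every probe set above background. Highest in replicate 3 in the other lists were 6 of 10 upstream kinases, 3 of 6 genes for SRF and its cofactors and 3 of 9 regulators of AP-1 protein. The AP-1 targets are given below. With the median of their probe sets 16 of the 21 were above background, beside 43.9% of all genes, and Maf was not, at 7.37. Jdp2, which encodes a JUN dimerisation partner that represses AP-1, was picked with its values known and read 10.96, 10.99 and 10.96.

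Of 10 measured regulators of AP-1 protein, 9 were above background, where 54.5% of all genes were. Among them were Apex1, whose product reduces the oxidised cysteine of FOS and JUN, at 11.65, 11.62 and 11.64, and the thioredoxin gene Txn1, at 12.89, 12.89 and 12.87, both named for their role after the values were seen. Fbxw7, which encodes a ubiquitin ligase subunit that marks JUN for degradation, was the exception, at 7.49, 7.66 and 7.65. The widest SDs were those of Dusp4, a phosphatase of MAP kinases, at 8.27, 8.50 and 8.57, of Cop1, a ubiquitin ligase for JUN, at 11.15, 11.22 and 11.27, and of Cops5, a JUN coactivator, at 11.38, 11.47 and 11.36.

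Of 16 measured genes known as AP-1 targets in other cells, 11 were above background (68.8%), beside 54.5% of all genes. The matrix protease genes Mmp3, Mmp9 and Mmp13, the urokinase gene Plau and its receptor gene Plaur were not, with means of 6.96, 7.54, 5.61, 5.85 and 7.53. Of these, Mmp9 passed the limit in replicate 3 only, at 7.61. Ptgs2, which encodes the inducible cyclooxygenase, had the widest SD of the list and read 7.89, 8.31 and 8.41, lowest in replicate 1 and highest in replicate 3 like Atf3. Its median probe set, at 7.13, was not above background. In this list 5 of the 11 genes above background, each read as its highest probe set, were highest in replicate 3, beside 43.2% of all probe sets above background. The haem oxygenase gene Hmox1 read 12.55, 12.61 and 12.72, and the cytokine gene Lif read 7.66, 7.79 and 7.61. Lif was thus just over the limit of 7.57, and it was not above background with the 99th percentile as the limit (8.03) or with its median probe set, at 6.60. A target above background does not show that AP-1 acts on it here, since no array without treatment was compared.

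**Figure D4:**
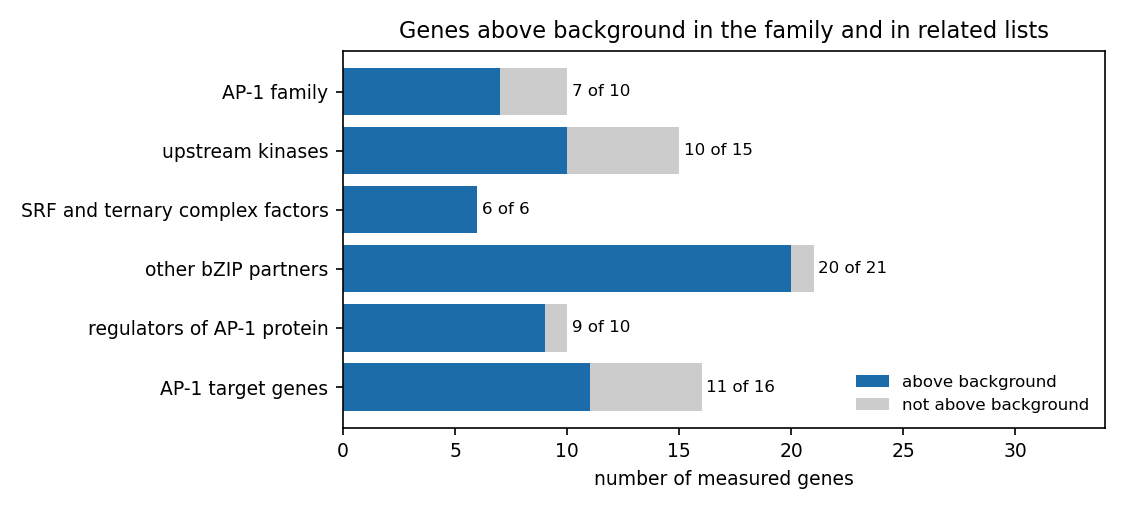
Number of measured genes (x axis) above background (blue) and not above it (grey) in the AP-1 family and in the 5 lists of related genes (y axis). The shares range from 10 of 15 among the upstream kinases to 6 of 6 for SRF and its cofactors, with 7 of 10 in the family and 54.5% over all genes.

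The adipocyte identity of the samples was checked on markers. All 6 measured adipocyte genes were above background, among them Adipoq at 14.49 ± 0.03, Fabp4 at 14.49 ± 0.02 and Lpl at 14.22 ± 0.01 (SD, n = 3), and so were all 5 preadipocyte and fibroblast genes. Plin1 was not analysed here. Of the lineages in which Batf and Batf3 are best known, 4 of 5 lymphocyte and 2 of 5 dendritic cell genes were above background, and of macrophage genes 3 of 7 were, beside 54.5% of all genes. The summed intensity over the measured markers ranged between the arrays from 1631 to 1661 for lymphocytes, from 919 to 979 for dendritic cells and from 3402 to 3644 for macrophages. These sums include genes not above background, and different probe sets are not comparable as amounts. No marker read 0, which does not show that it was transcribed, since probe sets below the limit also carry signal. The lymphocyte calls rested on the highest probe set of each gene, since 1 of the 5 genes passed when read as its median probe set, where 43.9% of all genes did. The macrophage genes above background were Lyz2 at 11.29, 11.15 and 11.13, Csf1r at 8.64, 8.65 and 8.82 and Cd14 at 8.83, 8.85 and 8.81, and all 3 were also above it with their median probe set. The pan-leukocyte gene Ptprc, at 4.79, 4.49 and 4.63, and Adgre1, Cd68 and Itgam were not above background.

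In the genome, 2 pairs of members lie close together with opposite calls. Fos and Batf, on the same strand of chromosome 12, start 212830 bases apart with a single coding gene between them, the zipper gene Jdp2. Fos and Jdp2 were above background and Batf was not. Batf3 and Atf3, on opposite strands of chromosome 1, start 84919 bases apart with the coding gene Fam71a between them, and Atf3 was above background and Batf3 was not. Junb and Jund also share a chromosome, 8, but 163 coding genes start between them.

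The promoter windows, from 250 bases before to 50 bases after the RefSeq start, were then compared with those of all genes. RefSeq windows were matched for 9 of the 10 members, and Fosl1 had none. The members' windows held a median of 64.7% G and C and 21 CpG dinucleotides, against 52.7% and 7 over all 32851 windows, and 8 of the 9 held more CpG than the latter. Jund was the exception with 3, and Batf3 held the most, 34. Members above and those not above background both had CpG-rich windows, such as Fosl2 with 32 and Fosb with 25, so the 2 kinds overlapped in CpG count.

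Of 8 motifs searched on both strands, 4 matched a member. The AP-1 site TGACTCA, the full cyclic AMP response element TGACGTCA, the antioxidant response core TGACNNNGC and the CArG box bound by SRF matched 0 of the 9 windows, and 5.20%, 1.79%, 12.4% and 1.63% of all windows. TGACATCA was found in Jun alone and in 3.62% of all windows. The hexamer TGACGT, added to the search after the sequences were seen and contained in TGACGTCA, was found in Fos, Atf3 and Batf, which differ in their calls, and in 7.51% of all windows. Motifs that begin with TGAC can share those letters with TGACNNNGC. TATAAA was found in Fos, 33 to 28 bases before the start, and in Junb, where it begins at the annotated start itself, and in 13.6% of all windows. The GC box GGGCGG was found in 7 of the 9 members, in all but Junb and Jund, and in 35.7% of all windows. A match describes the letters in the window and does not show that a factor binds there. Sites farther than 250 bases before the start or 50 after it were not searched, so a count of 0 covers the windows only.

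**Figure D5:**
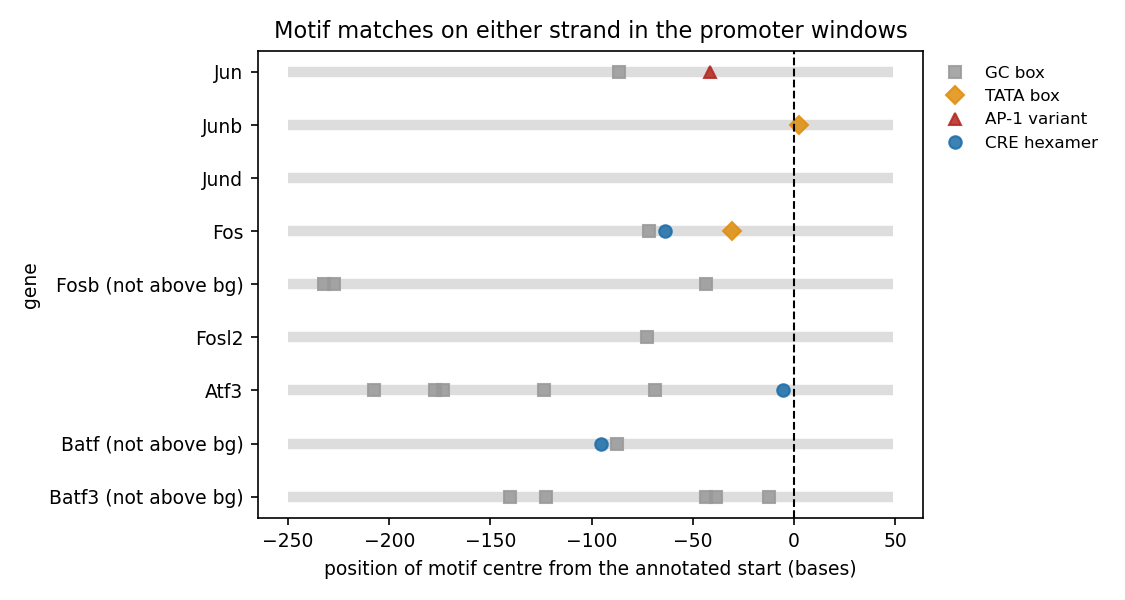
Position of each motif match from the annotated start (x axis, bases, centre of the motif) in the promoter windows of 9 members (y axis, those not above background marked as not above bg), with a symbol per motif and the window as a grey bar. The hexamer is found in Fos, Atf3 and Batf, the AP-1 variant in Jun and the GC box in 7 of the 9 windows, while Jund shows no match.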

How the data were processed

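The deposited values are probe set intensities of 3 mouse4302 arrays, made by the authors with RMA (background correction and normalization) in affyPLM. The version, the arrays normalized together and any later scaling are not given in the sources used here. Array medians were 127.6, 126.9 and 126.9, so the scale is linear. The deposited intensities were converted to log2 without further scaling, and any centring before deposit is unknown. Precision is limited by the number of arrays.

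Of 45101 probe sets, 34958 had 1 gene in the platform annotation, 932 several and 9211 none, and only the first kind was used. By Entrez identifier 34754 matched RefSeq genes (GRCm38.p6) and 0 symbols changed. With 1 group no test was run. Background limits, probe set choice, cross-hybridising probe sets, centring, a pseudocount of 16 and the promoter window were varied, and each array was left out in turn. Members, lists and the rule for named genes were chosen with earlier results of these data known. The rule named every member, in each related list the genes not above background and the 3 with the widest SD, 4 adipocyte markers and the 5 genes most like the member of widest SD. Mapk8, Mapk14, Map2k3, Jdp2, Apex1, Txn1, Dlk1, Pdgfra and the macrophage markers were added for their roles with their values known. Map3k1 and Crem were added because their values lay near the limit. Calls, SDs and motif searches were checked on simulated data. Protein features of the members, planned at the design stage, were not analysed here. Python 3.11.15, pandas 2.3.3, numpy 2.4.6 and matplotlib 3.10.9 were used.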

Additional observations from a re-analysis of the deposited data

How the results depend on the processing

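No paired analysis was possible because there was only 1 group. The 7 members above background were the same genes under each of the 8 alternatives, by which 43.9% to 57.5% of all genes were above background. The count of member probe sets, 9, was 8 with the 99th percentile and with keratin-associated protein and defensin probe sets as background. The counts of the 5 related lists stayed within 1.5 times their values under each alternative. Of the marker lists, the lymphocyte count, 4, was 2 with the 99th percentile, 2 with the other background genes and 1 with the median of probe sets, and the dendritic cell count, 2, was 1 with that median. The median SD of the family's probe sets was 0.037 to 0.069 with each array left out once (0.037 without replicate 1 and 0.042 without replicate 3), where the value over all arrays was 0.073. Of the levels of the members, 4 moved by more than 1 SD, each with the median of probe sets, to 8.39 for Fosl1, 8.87 for Fosl2, 11.67 for Jun and 9.53 for Jund. The counts of probe sets highest in replicate 3 and lowest in replicate 1 were 7 and 8 also on centring each array. On that centring the shares over all probe sets were 44.8% and 52.0%, where they had been 43.2% and 47.3%. The TATA box count, 2, was 1 when only the bases before the start were searched. The causes were not tested. Signal near background limits, among others, the calls for the weaker probe set of Fosl2 and for Map3k1, Map3k5, Fbxw7 and Lif. It also limits the call for the zipper protein gene Crem, at 7.65, 7.70 and 7.84.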
